A study of Mus musculus with 42 samples.

Results

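Ifitm1, Ifitm2 and Ifitm3 are 3 interferon-induced transmembrane protein genes that were followed here through every bulk RNA-seq library of mouse uterine tissue-resident NK (trNK) cells, 34 libraries in 17 groups of 2. The members were chosen by name, 3 of the 54353 genes that all bulk libraries list, and all 3 passed the filter on low values in each of the 4 experiments. The study asked how trNK cells differentiate while the uterine lining turns into decidua, and what IL-21 and its signal transducer STAT3 do in that process. All mice were wild-type C57BL/6 aged 8 to 12 weeks. In the gestation experiment, trNK cells were sorted as CD45+, NK1.1+, NKp46+, CD49a+ and CXCR6- cells from virgin mice and from pregnant mice at gestational days 6.5 (gd6.5) and 8.5 (gd8.5). In the subsets experiment, the trNK cells of gd8.5 were split by CD55 and 4-1BB into low (trNK-V), intermediate (trNK-D) and high (trNK-T) cells. In the inhibitor culture, trNK cells were kept for 72 h without IL-21 (control), with 20 ng/ml IL-21, or with IL-21 and 1 μM Stattic. Stattic is a STAT3 inhibitor (iSTAT3), and its dose is that of the labels, where the study's methods give 1 mM. The study's methods put IL-15 in the medium of its cultured trNK cells, so the control lacked IL-21 but was not free of cytokine. In the time course, trNK cells were cultured in IL-15 without or with 20 ng/ml IL-21 and taken at 0, 6, 24 and 72 h. The cultures were started from trNK-V cells sorted at gd6.5, so they model this subset and not the whole trNK pool. Which libraries came from separate mice or cultures is not given in the sources used here, so p-values measure only the spread between libraries, which may be technical. A matrix of single uterine cells from virgin and gd8.5 mice holds Ifitm1 and Ifitm3 but has no column for Ifitm2, which could not be followed there.

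Interferon-induced transmembrane proteins are small membrane proteins that hinder enveloped viruses from fusing with the membranes of the cell. Ifitm1 sits mainly at the cell surface, whereas Ifitm2 and Ifitm3 are found mostly in endosomes. The genes are induced by type I and type II interferons, and some cell types hold them at high levels without infection. In the uterus, members of the family are known from the lining epithelium and stroma around implantation, and NK cells are themselves a main source of interferon gamma.

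Library totals ranged from 11862089 counts (trNK-T replicate 2) to 66468883 counts (6 h replicate 2). Each of the 6 NK markers was detected in every library. The 2 virgin libraries stood apart from each other, with 16.3% of their expressed genes over 2-fold apart against 3.04% at gd6.5. Tnfrsf9, which encodes 4-1BB, measured 123 RPKM in virgin replicate 1 and 751 RPKM in virgin replicate 2, against 626 to 1137 RPKM in the 4 libraries of pregnant mice. Cd55 measured 26.2 and 110 RPKM in the same virgin libraries against 55.6 to 81.5 RPKM in pregnancy. The library labelled virgin replicate 2 thus held both genes within or above the range of the pregnant mice, and the gestation results that rest on it are given with and without it. For Ncr1 the virgin libraries lay together, with 992 and 979 RPKM in replicates 1 and 2 against 493 to 716 RPKM in pregnancy. Virgin replicate 1 detected 14879 genes and replicate 2 detected 16371, against 16515 to 17360 in pregnancy. Which of the 2 virgin libraries is the unusual one was not tested. Replicates also stood apart at 72 h of the time course, with 34.4% of expressed genes over 2-fold apart without and 34.3% with IL-21. At 0 h with IL-21 this share was 20.6%. Virgin replicate 1 was counted against a list of 55573 genes and the other libraries against 54446. The exons listed for Ifitm1, Ifitm2 and Ifitm3 were the same in all 34 libraries, but the exon lengths of the shared genes were not all equal. What the longer list did to the counts of virgin replicate 1, those of the 3 genes included, was not tested.

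The 3 genes lie close together on mouse chromosome 7 (mm10, the GRCm38 assembly). Ifitm2 (ENSMUSG00000060591) spans chr7:140954837-140955987 on the minus strand, Ifitm1 (ENSMUSG00000025491) chr7:140967221-140969825 on the plus strand, and Ifitm3 (ENSMUSG00000025492) chr7:141009586-141010770 on the minus strand. Their coding sequences of 318, 432 and 411 bases for Ifitm1, Ifitm2 and Ifitm3 were most alike between Ifitm2 and Ifitm3, with 77.3% identical positions. Ifitm1 shared 63.7% with Ifitm2 and 66.4% with Ifitm3. No stretch of 100 bases in the exons of Ifitm1 or Ifitm3 recurred in another gene. Of the 556 such stretches of Ifitm2, 34.9% recurred elsewhere, most of them in Gm45717, so how the counting split reads there leaves the level of Ifitm2 uncertain. Gm45717 held at most 1 count in any library, and the 6 other genes that share stretches with the members held at most 10.

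All 3 genes were called higher in trNK-T than in trNK-V cells, as given below. The parts of their RefSeq promoter windows (GRCm38.p6) that lie upstream of the first GENCODE exon in each window are given here. They are written 5′ to 3′ on the gene's own strand, and capitals mark the core of an interferon-stimulated response element, that is GAAA followed after any 2 bases by GAAA. The Ifitm1 stretch, chr7:140967826-140968027, lies in an intron of a longer annotated Ifitm1 transcript. The Ifitm2 stretch is chr7:140955988-140956211 and that of Ifitm3 is chr7:141010771-141010994.
Ifitm1: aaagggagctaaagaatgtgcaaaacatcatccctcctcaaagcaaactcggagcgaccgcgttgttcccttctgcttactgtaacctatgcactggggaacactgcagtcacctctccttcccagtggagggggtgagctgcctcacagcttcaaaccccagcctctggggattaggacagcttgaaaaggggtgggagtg
Ifitm2: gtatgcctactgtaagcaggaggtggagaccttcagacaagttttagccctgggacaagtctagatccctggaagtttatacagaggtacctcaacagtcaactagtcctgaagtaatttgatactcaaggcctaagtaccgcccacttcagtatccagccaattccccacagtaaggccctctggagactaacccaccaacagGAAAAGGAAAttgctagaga
Ifitm3: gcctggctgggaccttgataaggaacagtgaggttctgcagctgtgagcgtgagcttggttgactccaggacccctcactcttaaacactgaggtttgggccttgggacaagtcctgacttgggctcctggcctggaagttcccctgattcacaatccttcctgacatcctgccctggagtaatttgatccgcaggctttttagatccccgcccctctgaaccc

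Both strands of the 300-base promoter windows, which run from 250 bases before to 50 bases after the RefSeq start, were searched for this response element core and for the STAT core, TTC followed after any 3 bases by GAA. The Ifitm2 window held GAAAAGGAAA at chr7:140955998-140956007, upstream of the start. In the Ifitm3 window, 2 response element cores and a STAT core lay within chr7:141010716-141010742, at the beginning of the exon. The STAT core overlapped 1 of the response element cores and was 1 base clear of the other. That site is shown with all 3 matches in capitals.
Ifitm3 site: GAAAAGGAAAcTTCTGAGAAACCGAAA
The Ifitm1 window held neither motif. Of 32851 promoter windows of the same length, 3.44% held the response element core and 8.3% the STAT core. These matches describe letters in the window, not binding.

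Levels are given as RPKM, the deposited counts scaled to the length of the exons and to the total of the library. Over the 17 groups, all 3 genes were highest in trNK-T cells. The mean was 706 RPKM ± 287 (SD, n = 2) for Ifitm1, 1965 RPKM ± 439 for Ifitm2 and 381 RPKM ± 4.34 for Ifitm3, and in each case both trNK-T libraries lay above both libraries of the next group. After trNK-T, Ifitm1 was next highest at 24 h with IL-21 (384 RPKM ± 47.6) and then at 24 h without it (242 RPKM ± 76.6). Ifitm2 was next at gd8.5 (1217 RPKM ± 229), in trNK-D (697 RPKM ± 548) and at gd6.5 (651 RPKM ± 353), each overlapping the next. Ifitm3 was next in trNK-D (269 RPKM ± 10.7) and at 24 h with IL-21 (185 RPKM ± 45.7). At the low end, Ifitm1 was lowest in the control culture (2.96 RPKM ± 4.19), Ifitm2 in the cells taken at 0 h (36.3 RPKM ± 2.73) and Ifitm3 at 72 h without IL-21 (2.34 RPKM ± 3.26). The cultures and the freshly sorted cells belong to separate experiments, and whether they were sequenced together is not given in the sources used here. The order across experiments is therefore a description only. Neighbouring groups in the order overlapped in most places, and the plot of all libraries shows where they did not.

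**Figure D1:**
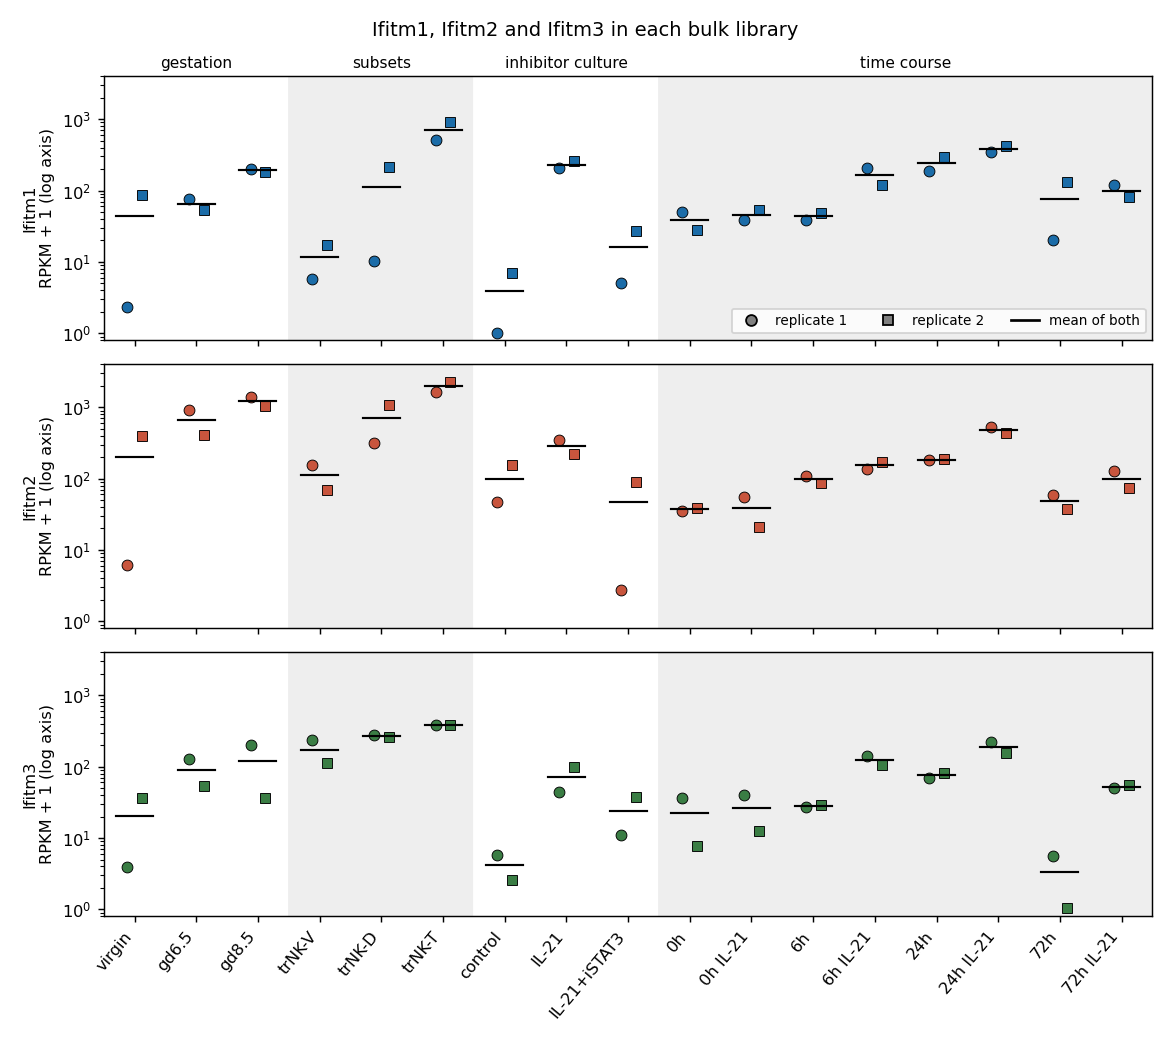
Level of Ifitm1, Ifitm2 and Ifitm3 (RPKM + 1, log axis) in each of the 34 bulk libraries, with circles for replicate 1, squares for replicate 2 and a line at the mean of both. The trNK-T libraries are highest for all 3 genes, and the virgin libraries lie far apart from each other for all 3.

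Gestation compares trNK cells of virgin mice with those of decidualizing uteri. Ifitm2, the most abundant of the 3 in each of these libraries, measured 5.19 and 398 RPKM in virgin replicates 1 and 2, 901 and 401 RPKM at gd6.5, and 1378 and 1055 RPKM at gd8.5. The virgin libraries were 76.7-fold apart, and both were below every gd6.5 and gd8.5 library, although virgin replicate 2 lay close to gd6.5 replicate 2. Ifitm1 measured 1.32 and 85.1 RPKM in virgin cells, 76.3 and 52.9 RPKM at gd6.5 and 202 and 184 RPKM at gd8.5. Its virgin values enclosed those of gd6.5, while both gd8.5 libraries were higher than all others. Ifitm3 measured 2.96 and 35.9 RPKM in virgin cells, 125 and 51.8 RPKM at gd6.5, and 201 and 35.3 RPKM at gd8.5. It overlapped between gd8.5 and virgin cells through the second gd8.5 library, in which the 6 erythroid markers also summed to 844 RPKM, against 0.251 RPKM in the first. The part of these markers in the result was not tested.

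Against virgin cells, the log2 fold changes at gd6.5 were 0.50 (SE 1.33) for Ifitm1, 1.61 (SE 1.46) for Ifitm2 and 2.11 (SE 1.23) for Ifitm3. None of the 3 was called by edgeR's quasi-likelihood test with Benjamini-Hochberg adjustment over all genes tested (adjusted p = 0.823, 0.479 and 0.275), where 6.22% of 4504 genes were called at an adjusted p under 0.05 and a fold change over 2. At gd8.5 the changes were 2.09 (SE 1.38), 2.52 (SE 1.5) and 2.54 (SE 1.24), again without a call (adjusted p = 0.515, 0.478 and 0.408), where 0.377% of genes were called. Between gd8.5 and gd6.5 the changes were 1.59 (SE 1.35), 0.91 (SE 1.43) and 0.43 (SE 1.17), with adjusted p of 0.507, 0.728 and 0.852 and no gene called by edgeR (0%). There, 1062 genes had an unadjusted p under 0.05, and DESeq2 called 221. Both libraries lay above both libraries of the earlier stage for 2 of the 3 genes in each of these comparisons, as they did for 36.4%, 28.6% and 32.9% of all genes tested. The comparisons with virgin cells turned on the virgin pair, of which replicate 2 held Tnfrsf9 and Cd55 within or above the range of pregnancy. Both virgin libraries held Ncr1 above its range in pregnancy. Without virgin replicate 2, all 3 genes were called higher by edgeR at gd6.5 (5.53, 6.89 and 4.82), where the calls over all genes rose to 17.1% as well. The same held at gd8.5, with changes of 7.12, 7.80 and 5.25, where 10.4% of all genes were called. Without virgin replicate 1, the Ifitm1 change at gd6.5 turned to -0.48 and none was called. The Ifitm3 values turned on the gd8.5 pair too: without gd8.5 replicate 1 the change against virgin cells was 0.81 and that against gd6.5 turned to -1.29, and without gd6.5 replicate 2 the latter was -0.07.

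The subsets experiment follows the same genes along the CD55 and 4-1BB gates of gd8.5 trNK cells. Ifitm1 measured 4.68 and 16.4 RPKM in trNK-V, 9.32 and 212 RPKM in trNK-D, and 504 and 909 RPKM in trNK-T. Every trNK-T library was above every trNK-D and trNK-V library, and the trNK-D pair was 22.8-fold apart. Of the subsets, only trNK-T had both libraries above 10 RPKM. Ifitm1 thus passed the filter on low values through the group where it was highest, which limits what its call there can show. Ifitm2 measured 155 and 68.3 RPKM in trNK-V, 310 and 1084 RPKM in trNK-D, and 1654 and 2275 RPKM in trNK-T, so the 3 subsets did not overlap. Ifitm3 measured 233 and 113 RPKM in trNK-V, 276 and 261 RPKM in trNK-D, and 378 and 384 RPKM in trNK-T, also without overlap and over a narrower range than the other 2 genes.

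Between trNK-T and trNK-V cells, all 3 genes were called higher, where 21.2% of 4683 genes were called in either direction and 8.07% were called higher. The libraries of the 3 genes did not overlap, nor did those of 36.5% of the genes tested, in this direction. The log2 fold change was 6.07 (SE 1.48, adjusted p = 0.0232) for Ifitm1, 4.14 (SE 0.69, adjusted p = 0.00776) for Ifitm2 and 1.15 (SE 0.31, adjusted p = 0.0319) for Ifitm3, by edgeR. Against trNK-V, trNK-D cells differed by 3.41 (SE 1.32), 2.66 (SE 0.64) and 0.65 (SE 0.31), with adjusted p of 0.225, 0.130 and 0.287, where 0.32% of genes were called. Without trNK-D replicate 2, the Ifitm1 difference between trNK-D and trNK-V turned to -0.18. Against trNK-D, trNK-T cells differed by 2.65 (SE 1.25), 1.48 (SE 0.61) and 0.50 (SE 0.31), with adjusted p of 0.258, 0.215 and 0.377, where 1.75% of genes were called. By edgeR, none of these 6 differences passed the test. DESeq2 called Ifitm2 in trNK-D against trNK-V, where it called 187 genes. Without the filter on low values, Ifitm1 and Ifitm2 were called in both comparisons, where 471 and 587 genes were called. The libraries lay apart for 2 of the 3 genes in the former comparison, as for 25.9% of the genes tested, and for all 3 in the latter, as for 29.4%. The trNK-T against trNK-V calls kept their direction in every alternative, but they rested on few libraries. Without trNK-V replicate 2, the 8-marker macrophage sum of which was 385 RPKM, the adjusted p was 0.0875, 0.0522 and 0.0512 for Ifitm1, Ifitm2 and Ifitm3. Without trNK-V replicate 1, in which the 6 stromal markers summed to 51.9 RPKM, only the Ifitm1 call was lost (adjusted p = 0.109). Without trNK-T replicate 2, Ifitm1 and Ifitm3 lost the call (adjusted p = 0.0810 and 0.117), and without trNK-T replicate 1 only Ifitm3 did (adjusted p = 0.0810).

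Markers of other cell types moved with these gates. The macrophage sum was 56.3 and 385 RPKM in trNK-V, 277 and 391 RPKM in trNK-D, and 20.0 and 17 RPKM in trNK-T. The stromal sum was 0.513 and 0.688 RPKM in trNK-T, and the neutrophil sum was at most 1.33 RPKM in all 6 libraries. Other sums were higher in trNK-T than in trNK-V, and the monocyte sum overlapped between trNK-T and trNK-D. The 6 endothelial markers summed to 21 and 19.7 RPKM in trNK-V, 26.7 and 34.3 RPKM in trNK-D, and 50.8 and 50.9 RPKM in trNK-T. The 5 epithelial markers summed to 24.9 and 11.0 RPKM in trNK-V, 44.1 and 31.2 RPKM in trNK-D, and 64.7 and 64.8 RPKM in trNK-T. The 6 monocyte markers summed to 479 and 437 RPKM in trNK-V, 656 and 487 RPKM in trNK-D, and 752 and 527 RPKM in trNK-T. In trNK-T, the epithelial markers Krt8, Krt18 and Cldn4 were at 0 in both libraries, the endothelial markers Cdh5, Kdr and Tie1 in 1 of the 2, and the monocyte marker Vcan in both. Neutrophil-like, macrophage-like and stromal-like cells held the most Ifitm3 among single cells, and a monocyte-like cluster that appeared with 3000 variable genes held 5102 CPM. Of the epithelial markers, Epcam was also at least 3-fold over the other cells in a trNK-like single-cell cluster, cluster 04 below. The monocyte marker Plac8 was so in the cluster with the highest Scin level when limits on cells were read as genes per cell. The part of other cell types in the levels of the 3 genes was not tested. In bulk libraries, fewer cells of a type and less RNA per cell cannot be told apart.

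**Figure D2:**
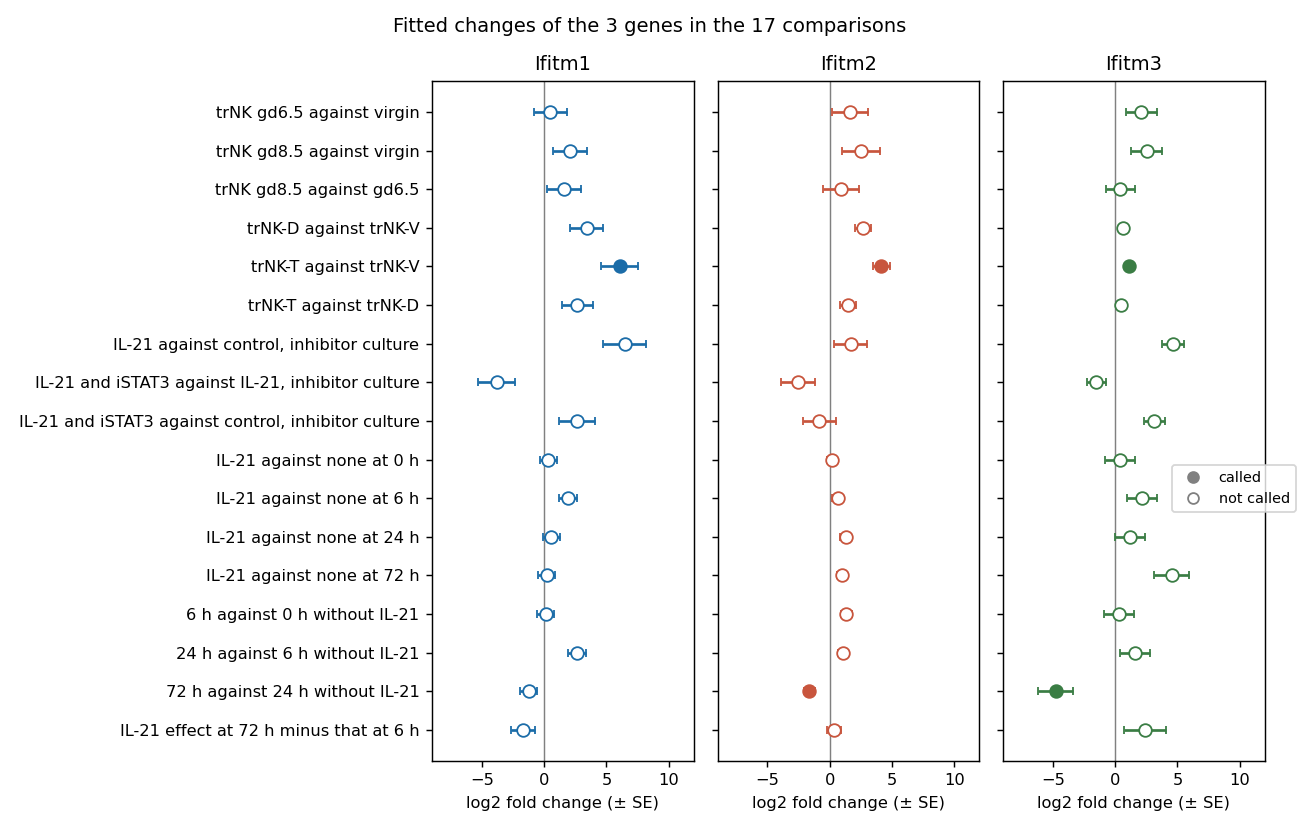
Fitted log2 fold change with its standard error for Ifitm1, Ifitm2 and Ifitm3 in the 17 comparisons, with filled points for calls (adjusted p under 0.05 and fold change over 2) and open points for the rest. The 3 filled points on the right side are trNK-T against trNK-V, and the 2 on the left side are Ifitm2 and Ifitm3 at 72 h against 24 h without IL-21.

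The make-up of the 3 genes differed between groups as well as their sum. Of the summed RPKM of the 3, Ifitm2 took 77.3% to 82.8% in the gd6.5 and gd8.5 libraries. Ifitm3 took 59.3% and 57.1% in the trNK-V libraries but 14.9% and 10.8% in the trNK-T libraries. Ifitm1 took 1.19% and 8.31% in trNK-V and 19.9% and 25.5% in trNK-T. The fold change from trNK-V to trNK-T was thus largest in Ifitm1 and smallest in Ifitm3, and the plot of shares by library shows this difference. In the control culture, Ifitm2 made up 90.6% and 95.3% of the sum.

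**Figure D3:**
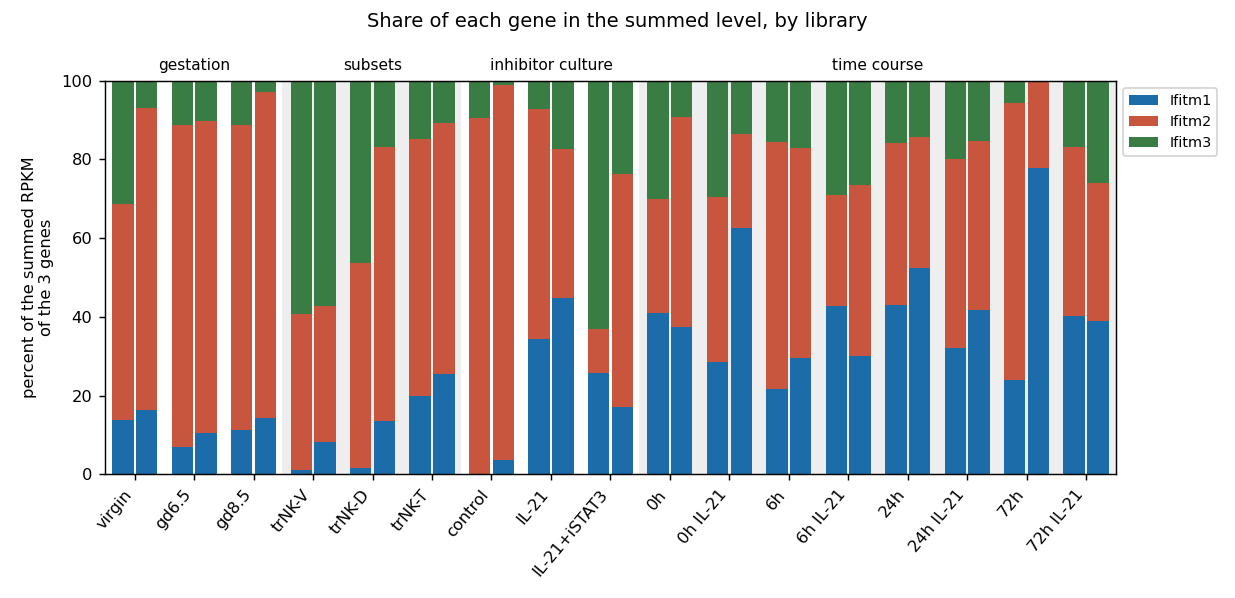
Percent of the summed RPKM of the 3 genes that each gene takes, by library, with replicate 1 on the left and replicate 2 on the right of each pair. Ifitm3 is the main gene in the trNK-V libraries (59.3% and 57.1%), and Ifitm2 in those of gd6.5, gd8.5 and trNK-T.

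The inhibitor culture asks what IL-21 does to these cells over 72 h and what adding iSTAT3 changes. No group received iSTAT3 in the absence of IL-21, so what the inhibitor does by itself was not tested. Differences between the group given iSTAT3 and the IL-21 group can therefore not be assigned to STAT3 signalling alone. Ifitm1 measured 0 and 5.92 RPKM in the control, 203 and 257 RPKM with IL-21, and 4.09 and 26.1 RPKM with IL-21 and iSTAT3. The IL-21 libraries were above all 4 others. Only the IL-21 group had both libraries above 10 RPKM, so Ifitm1 passed the filter on low values through that group alone. Ifitm3 measured 4.73 and 1.62 RPKM in the control, 43.2 and 99.3 RPKM with IL-21, and 10.0 and 36.2 RPKM with the inhibitor added, where both libraries lay between the other groups. Ifitm2 measured 45.8 and 152 RPKM in the control, 345 and 217 RPKM with IL-21, and 1.76 and 89.7 RPKM with the inhibitor. Its IL-21 libraries were again the highest, and its inhibitor libraries were 51.1-fold apart.

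By edgeR with the filter on low values, none of these differences passed the test across all genes. IL-21 against control gave 6.45 (SE 1.69) for Ifitm1, 1.70 (SE 1.32) for Ifitm2 and 4.65 (SE 0.91) for Ifitm3, with edgeR adjusted p of 0.184, 0.807 and 0.0905, where 0.289% of 4158 genes were called. All 3 genes had both IL-21 libraries above both control libraries, as had 10.7% of the genes tested. IL-21 with iSTAT3 against IL-21 gave -3.82 (SE 1.48), -2.52 (SE 1.36) and -1.5 (SE 0.79), with adjusted p of 0.217, 0.360 and 0.349, where 2.96% were called. There, all 3 had both inhibitor libraries below both IL-21 libraries, as had 28.9% of the genes tested. The cells with IL-21 and iSTAT3 differed from the control by 2.63 (SE 1.44), -0.82 (SE 1.29) and 3.15 (SE 0.85), with adjusted p of 0.325, 0.788 and 0.0811, where 4.74% were called, and only Ifitm3 had both libraries above those of the control, as had 16.5% of the genes tested. With DESeq2 in place of edgeR, Ifitm3 was called higher in both IL-21 groups than in the control (adjusted p = 8.37e-07 and 0.00129), where DESeq2 called 3.9% and 14% of all genes. Replicates of this culture were loose, with 19.2% to 22.2% of expressed genes over 2-fold apart within a group. Stromal markers were at 0 in 5 or 6 of 6 and macrophage markers in 6 or 7 of 8 in every library of this culture.

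The time course takes IL-21 from 0 to 72 h. At 0 h the groups overlapped for all 3 genes: Ifitm1 measured 48.7 and 26.8 RPKM without and 37.1 and 52.4 RPKM with IL-21, Ifitm2 34.4 and 38.2 against 54.6 and 20.0 RPKM, and Ifitm3 35.7 and 6.69 against 38.5 and 11.4 RPKM. By 6 h, both IL-21 libraries were above both libraries without it for all 3 genes, as were those of 30.3% of 3503 genes tested. Ifitm1 then measured 37.3 and 47.9 RPKM without and 206 and 119 RPKM with IL-21, and Ifitm3 measured 26.5 and 27.7 RPKM without and 140 and 105 RPKM with IL-21. The difference in Ifitm2 was smaller, with 108 and 85.9 RPKM without and 135 and 171 RPKM with IL-21. At 24 h the same order held, as for 39.8% of the genes tested: Ifitm1 measured 187 and 296 against 350 and 418 RPKM, Ifitm2 179 and 187 against 522 and 433 RPKM, and Ifitm3 68.4 and 80.6 against 217 and 153 RPKM.

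At 72 h, Ifitm3 measured 4.65 and 0.0354 RPKM without IL-21, the latter from 1 count, and 48.7 and 53.6 RPKM with it. Ifitm2 measured 57.3 and 37.0 RPKM without and 125 and 72.1 RPKM with IL-21. The libraries of both genes lay apart, as did those of 21.6% of the genes tested. Ifitm1 overlapped, with 19.5 and 131 RPKM without and 117 and 80.4 RPKM with IL-21. In the inhibitor culture, also at 72 h, Ifitm1 had measured 0 and 5.92 RPKM without and 203 and 257 RPKM with IL-21. The cultures thus differed in this gene at 72 h, and why was not tested. The levels at 72 h and 24 h were compared by a test only in the arm without IL-21, as given below.

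By edgeR, the IL-21 effect at 0 h was 0.31, 0.16 and 0.37 for Ifitm1, Ifitm2 and Ifitm3 (SE 0.68, 0.41 and 1.18), with no gene of the table called (0%, with 110 at an unadjusted p under 0.05 and 0 called by DESeq2). At 6 h it was 1.89 (SE 0.70, adjusted p = 0.271), 0.63 (SE 0.41, adjusted p = 0.668) and 2.14 (SE 1.23, adjusted p = 0.571), where 1.97% of genes were called. At 24 h it was 0.57 (SE 0.68), 1.28 (SE 0.42) and 1.21 (SE 1.19), with adjusted p of 0.817, 0.169 and 0.753, where 1.66% were called. At 72 h it was 0.21 (SE 0.68), 0.97 (SE 0.42) and 4.53 (SE 1.38), with adjusted p of 0.889, 0.175 and 0.0624, where 8.08% were called. Fitted on the groups compared alone, Ifitm1 and Ifitm3 were called higher at 6 h (adjusted p = 0.00195 and 0.000914) and Ifitm2 and Ifitm3 at 24 h (1.67e-05 and 0.000516), where that fit called 7.14% and 10.5% of all genes. DESeq2, limma-voom and the replicate block each called Ifitm3 at 72 h (adjusted p = 0.00122, 0.0185 and 0.0486) among 13.6%, 9.93% and 7.22% of all genes, while the fit on the groups compared alone did not (adjusted p = 0.788) and called no gene there. The IL-21 effect at 72 h minus that at 6 h was -1.68 (SE 0.97), 0.34 (SE 0.58) and 2.38 (SE 1.70), with adjusted p of 0.411, 0.855 and 0.548, where 4.17% of genes were called, so a difference between the effects at 72 h and 6 h was not called for these genes. Without 72 h replicate 1 it was called for Ifitm1 (-2.51, adjusted p = 0.00653) and Ifitm3 (8.07, adjusted p = 0.00592), the latter against a 72 h library of 1 count, and without 72 h replicate 2 the Ifitm1 value turned to 0.46. The effect at 24 h was not compared with the others.

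Without IL-21, the 3 genes were compared between times in culture, and edgeR called only Ifitm2 and Ifitm3, from 24 to 72 h. From 0 to 6 h the changes were 0.13 (SE 0.68), 1.35 (SE 0.42) and 0.30 (SE 1.18), where no gene of the table was called by edgeR (0%, with 106 at an unadjusted p under 0.05 and 6 called by DESeq2). Only Ifitm2 had both 6 h libraries above both 0 h libraries, as had 23.3% of the genes tested. From 6 to 24 h they were 2.63 (SE 0.72), 1.06 (SE 0.42) and 1.59 (SE 1.21), with adjusted p of 0.546, 0.821 and 0.998, where 0.0856% of genes were called and the libraries of all 3 genes lay apart, as for 16.3% of the genes tested. From 24 to 72 h, Ifitm2 fell by 1.63 (SE 0.42, adjusted p = 0.0242) and Ifitm3 fell by 4.77 (SE 1.39, adjusted p = 0.0378) on the log2 scale, while Ifitm1 changed by -1.25 (SE 0.69, adjusted p = 0.237). Of all genes, 14.8% were called in this step and 9.82% were called lower, and 47.6% had both 72 h libraries below both 24 h libraries, as had all 3 members. The Ifitm2 call was lost without either 24 h library or the second 72 h library (adjusted p from 0.0834 to 0.103), and that of Ifitm3 without either 24 h library (0.0918 and 0.119). Both were lost when the groups compared were fitted alone (adjusted p = 0.0939 and 0.290), where 3 genes were called against 518. The same libraries detected 13340 and 14229 genes at 24 h and 10724 and 11665 genes at 72 h, and the part of this in the fall was not tested. Markers of dividing cells summed to 535 and 503 RPKM at 24 h and to 7.90 and 3.51 RPKM at 72 h in the same libraries, and what this had to do with the fall was not tested.

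Ifitm1, Ifitm2 and Ifitm3 were set beside the other members of their family and the rest of the interferon pathway in lists of genes. Of the 4 other Ifitm genes in the files, Ifitm5 reached at most 4.08 RPKM and Ifitm7 0.307 RPKM in any library. Ifitm6 was at 0 in both trNK-T libraries, at 3.94 and 7.40 RPKM in trNK-V and at 13.9 and 16.7 RPKM in trNK-D, and it was called lower in trNK-T than in either (adjusted p = 0.00411 and 0.0132). Only trNK-D had both libraries above 10 RPKM, so Ifitm6 passed the filter on low values through that group alone. In the single cells it was found mainly in neutrophil-like (791 CPM) and macrophage-like cells (64.5 CPM). Ifitm10, a more distant member that lies apart from the others on chromosome 7, measured 45.6 and 38.9 RPKM in trNK-V and 12.5 and 9.47 RPKM in trNK-T, a change of -1.94 (SE 0.34, adjusted p = 0.00907). From trNK-V to trNK-T, the family thus had 3 genes called higher and 2 called lower of the 5 tested, beside 8.07% and 13.1% of all genes.

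Of the 30 other interferon genes tested in that comparison, 18 were called lower, 0 were called higher and 12 did not pass the test. Of 9 tested receptors and signalling genes, 7 were called lower in trNK-T and 0 higher, and the median change over the list was -1.48 on the log2 scale, beside -0.02 over all genes tested. Among them were both chains of the type I interferon receptor, Ifnar1 (-1.48, adjusted p = 0.0207) and Ifnar2 (-1.98, adjusted p = 0.00547), and the transcription factors Irf7 (-2.32, adjusted p = 0.00491) and Irf9 (-1.68, adjusted p = 0.00804). Of 12 antiviral targets, 6 were called lower and 0 higher (median -1.57), among them Samhd1 (-1.91, adjusted p = 0.00414) and Oas1a (-1.56, adjusted p = 0.00896). Of 8 GTPase targets, 4 were called lower and 0 higher (median -1.24), among them Igtp (-2.21, adjusted p = 0.0102) and Gbp2 (-2.06, adjusted p = 0.0129). Ifng, which encodes interferon gamma, was called lower as well (-1.76, adjusted p = 0.0141). Of all genes tested, 13.1% were called lower. Ifitm1, Ifitm2 and Ifitm3 were the 3 genes of these lists called higher in trNK-T, and none outside the family was. The macrophage sum was also lower in trNK-T, as given above, and macrophage-like single cells held 10270 CPM of antiviral targets against 2108 to 4510 CPM in the trNK-like clusters. T-like single cells held 6882 CPM of antiviral targets and, with 1875 CPM, the most GTPase targets of the clusters. The part of such cells in these calls was not tested. Without trNK-V replicate 2, which had the higher macrophage sum of that pair, 6 receptors and signalling genes, 3 antiviral and 1 GTPase target were called lower, beside 7.3% of all genes. Without trNK-T replicate 2 they were 5, 2 and 0, beside 5.57%, and Ifng lost its call with either trNK-T library left out. Against trNK-D, where 1.41% of all genes were called lower, Irf7 (-1.83), Oas1a (-1.54) and Samhd1 (-1.45) were called lower in trNK-T (edgeR adjusted p from 0.0471 to 0.0482).

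**Figure D4:**
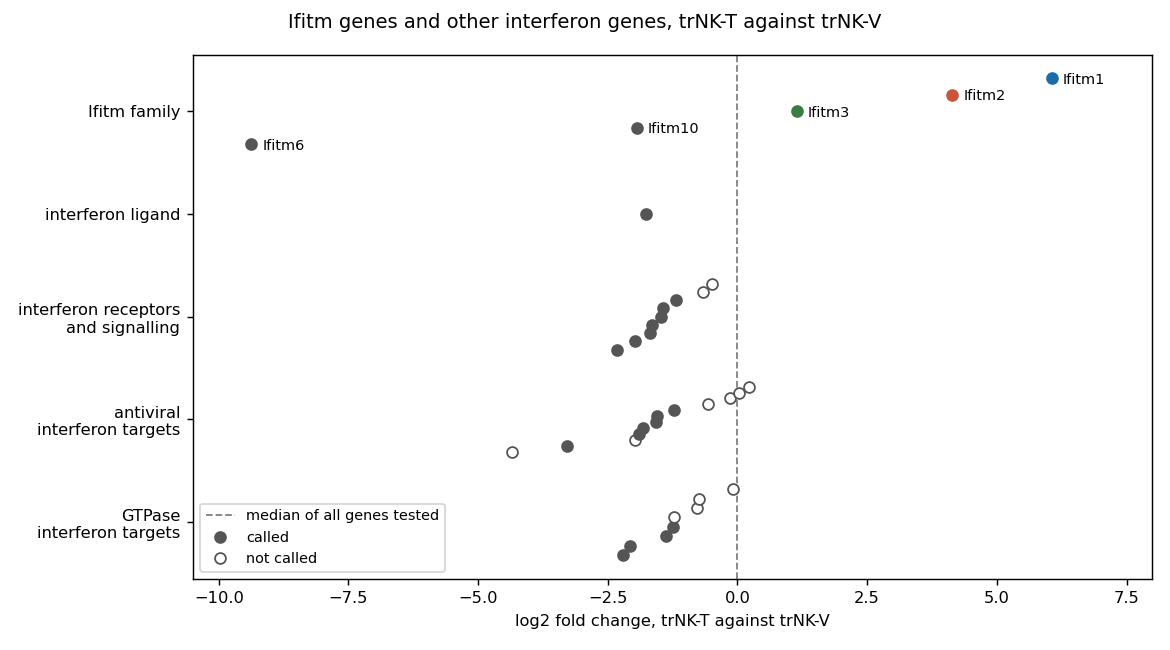
Log2 fold change of trNK-T against trNK-V for the Ifitm family and for other interferon genes by list, with filled points for calls and a dashed line at the median of all genes tested. Ifitm1 (6.07), Ifitm2 (4.14) and Ifitm3 (1.15) are the filled points on the right side, and the filled points of the other lists, with Ifitm6 and Ifitm10, are on the left side. The place of Ifitm6, which is at 0 in both trNK-T libraries, depends on the prior count of the fit.

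At gd6.5 against virgin cells, where none of the 3 members was called, 6 of 10 antiviral targets (median -1.27), 3 of 9 GTPase targets (median -1.08) and 3 of 10 receptors and signalling genes (median -0.55) were called lower and none higher, beside 3% of all genes called lower. In this comparison 280 genes were called, against 0 when the groups compared were fitted alone and 2 with the replicate block. These list calls were therefore lost, or nearly all lost, in those settings. Without virgin replicate 2, 7 of 10 antiviral targets, 6 of 9 GTPase targets and 5 of 10 signalling genes were called lower, beside 7.73% of all genes, and without virgin replicate 1 the counts were 6, 2 and 2, beside 4.04%. With either gd6.5 library left out, none was called. The 8-marker macrophage sum was 29.5 and 30.2 RPKM in virgin and 12 and 14.1 RPKM in gd6.5 libraries, and the 6-marker monocyte sum 515 and 737 against 339 and 297 RPKM. Their part in these calls was not tested. Ifng (-2.28, adjusted p = 0.0299), the 1 ligand tested, Rtp4 (-3.65, adjusted p = 0.0253) and Oas1a (-1.53, adjusted p = 0.0289) were among the genes called lower, and each was called whichever virgin library was left out. In the inhibitor culture, Ifng was called higher with IL-21 (4.58, adjusted p = 0.0136) and with IL-21 and iSTAT3 (4.11, adjusted p = 0.00584) than in the control, beside 0.289% and 2.93% of all genes, and no antiviral, GTPase or signalling gene was called in any of its 3 comparisons. In the time course, 1.37% of all genes were called lower with IL-21 at 6 h and 1.31% at 24 h. Among them were 1 of 8 antiviral targets, Rtp4 (-1.58 at 6 h and -2.05 at 24 h, adjusted p = 0.0471 and 0.0202), and 1 of 5 GTPase targets, Tgtp2 (-1.11 and -1.50, adjusted p = 0.0235 and 0.00870). At 72 h, Ly6e (1.28, adjusted p = 0.00194), Gbp4 (1.45, adjusted p = 0.0446) and Ifnar2 (1.29, adjusted p = 0.0483) were called higher with IL-21, beside 6.57% of all genes. No gene was called at 72 h when the groups compared were fitted alone, against 283 here. The IL-21 effect at 72 h was above that at 6 h for Ifnar2 (by 2.05, adjusted p = 0.0474) and Tgtp2 (by 1.39, adjusted p = 0.0234), beside 3.6% of all genes.

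The genes within 100 kb of the cluster were measured to see whether the whole stretch moved. Beside the members, 7 neighbours were tested in the subsets, 6 in the inhibitor culture, 4 in gestation and 2 in the time course, and none was called higher anywhere. Between trNK-T and trNK-V, Ifitm6 and Pkp3, which encodes a desmosome protein, were called lower, beside 13.1% of all genes, the latter from 30.6 and 46.5 to 20.5 and 17.5 RPKM (log2 fold change -1.02, adjusted p = 0.0216). Sigirr, an inhibitor of interleukin-1 receptor signalling, was called lower with IL-21 and iSTAT3 than in the control culture (-2.66, adjusted p = 0.0443), beside 1.8% of all genes. Psmd13, a proteasome subunit, passed the filter in all 4 experiments and was not called in any comparison.

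Over all 34 libraries, with the mean of each experiment taken off log2(RPKM + 1), Ifitm1 and Ifitm2 had a Pearson r of 0.78, Ifitm2 and Ifitm3 0.64, and Ifitm1 and Ifitm3 0.62. Within single experiments, of 6 libraries each and 16 in the time course, r was 0.60 to 0.98 for Ifitm1 and Ifitm2, 0.34 to 0.91 for Ifitm2 and Ifitm3, and 0.59 to 0.86 for Ifitm1 and Ifitm3. Among 2659 genes kept in all experiments, those most like Ifitm1 were AA467197 (0.81) and the granzyme gene Gzma (0.81), followed by Nabp1 (0.78), Gzme (0.76) and Gzmc (0.75). Those most like Ifitm2 were Gzmc (0.79), the signal peptidase genes Spcs2 (0.77) and Sec11c (0.76), the translocon gene Sec61b (0.73) and AA467197 (0.73). Those most like Ifitm3 were Cyb5b (0.81), Gzme (0.79), Hsd17b10 (0.78), Gzmb (0.78) and the sterol synthesis gene Msmo1 (0.77). Of the 15 places, 6 were held by granzymes. These values also differed between experiments, as for Ifitm1 with AA467197 (0.50 in the time course to 0.98 in gestation), Ifitm2 with Gzmc (0.44 in the inhibitor culture to 0.97 in gestation) and Ifitm2 with Sec61b (0.35 in the time course to 0.98 in the subsets). The libraries of a group share their treatment, and all values of a library share its depth, so these are descriptions without a test.

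In the single-cell matrix, 15175 cells were listed, and neither of its 2 files can be tied to virgin or gd8.5 mice, because both list the same cells and split the genes between them. The cells are therefore 1 pooled sample with no comparison between conditions. With the limits of the study's methods (over 200 and under 2500 UMIs, under 10% mitochondrial UMIs), 4338 cells were kept, with a median of 1607 UMIs. Read as genes per cell, the same limits kept 8907 cells. The cells formed 12 clusters, and 5 of them, with 2139 cells, were trNK-like by at least 3 of the markers Ncr1, Klrb1c, Eomes and Itga1. Classes other than NK cells were present in spite of the sort for CD45+, NK1.1+ and NKp46+ cells, among them macrophage-like, B-like, T-like, stromal-like and neutrophil-like cells. A doublet caller marked 2 cells, too few to rely on, so doublets were left in.

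Ifitm1 was uneven within trNK-like cells. Cluster 04, with 309 cells led by Mcpt8, Ccl1, Mt2, Tnfsf4, Scin and Gzmf, held 900 CPM of Ifitm1 (95% Poisson interval 817 to 989). The trNK-like clusters 02, 03 and 05 held 98.2 (80.9 to 118), 116 (96.4 to 137) and 136 CPM (103 to 176), and the conventional NK-like cells 93.9 CPM (77.8 to 112). Cluster 07, with 223 cells of a median of 725 UMIs led by small RNA genes, lay between them with 369 CPM (288 to 465). B-like cells, taken as the background class, held 77.9 CPM (52.6 to 111) at a median of 1606 UMIs. After thinning to 1000 UMIs per cell, 38.3% of 256 cells of cluster 04 had an Ifitm1 UMI (exact 95% interval 32.3% to 44.5%), against 8.22% of 219 B-like cells (4.94% to 12.7%), and 43.0% against 11.2% without thinning. In the trNK-like clusters 02, 03 and 05 (7.52%, 12.4% and 9.95%) and in the conventional NK-like cells (7.33%), the share was within the interval of the B-like cells. The CPM of clusters 03 and 05 lay above the upper limit of the B-like interval, and that of cluster 02 and of the conventional NK-like cells lay within it. Cluster 04 also held the dividing cell markers Top2a, Cdk1, Rrm2 and Pclaf at 3-fold over the other cells, and cluster 07 held Mki67, Top2a, Cdk1, Ube2c and Rrm2, while clusters 02, 03 and 05 held none. The part of division in the Ifitm1 level was not tested. Cluster 02 held Cxcr6 and Cd200r1, markers of type 1 innate lymphoid cells, at 3-fold. Cxcr6 measured 152 CPM in cluster 02, 131 CPM in cluster 03 and 71.5 CPM in cluster 05, against 14.5 CPM in cluster 04 and 10.4 CPM in B-like cells, and Eomes measured 396, 380, 445 and 358 CPM in these 4 trNK-like clusters. Type 1 innate lymphoid cells share the trNK markers Ncr1, Klrb1c and Itga1, and the bulk cells were sorted as CXCR6-, so the name of clusters 02, 03 and 05 is uncertain. Intervals cover counting error only.

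Ifitm3 had another distribution. Neutrophil-like cells held 4792 CPM (4443 to 5161), macrophage-like cells 2011 CPM (1929 to 2095) and stromal-like cells 1367 CPM (1202 to 1548), while B-like cells held 83.1 CPM (56.9 to 117). Among trNK-like clusters, cluster 04 held 170 CPM (135 to 211) and the clusters 02, 03 and 05 between 70.4 and 83.4 CPM. Cluster 07 held 135 CPM (88.2 to 198), an interval that overlaps that of cluster 04. After thinning, 14.8% of the cells of cluster 04 had an Ifitm3 UMI (10.7% to 19.8%) against 5.02% of B-like cells (2.53% to 8.81%). The part of free RNA in the level of cluster 04 was not tested. Stromal-like cells also held Ifitm1 (794 CPM, 670 to 935), as did neutrophil-like cells (378 CPM, 285 to 492). The neutrophil-like cluster also held the monocyte markers Ly6c2, Plac8 and Ms4a4c at 3-fold, so its name is uncertain. With 3000 variable genes, a monocyte-like cluster of 79 cells held 5102 CPM of Ifitm3 and 212 CPM of Ifitm1. A neutrophil-like cluster of 13 cells then held 3014 and 1536 CPM.

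**Figure D5:**
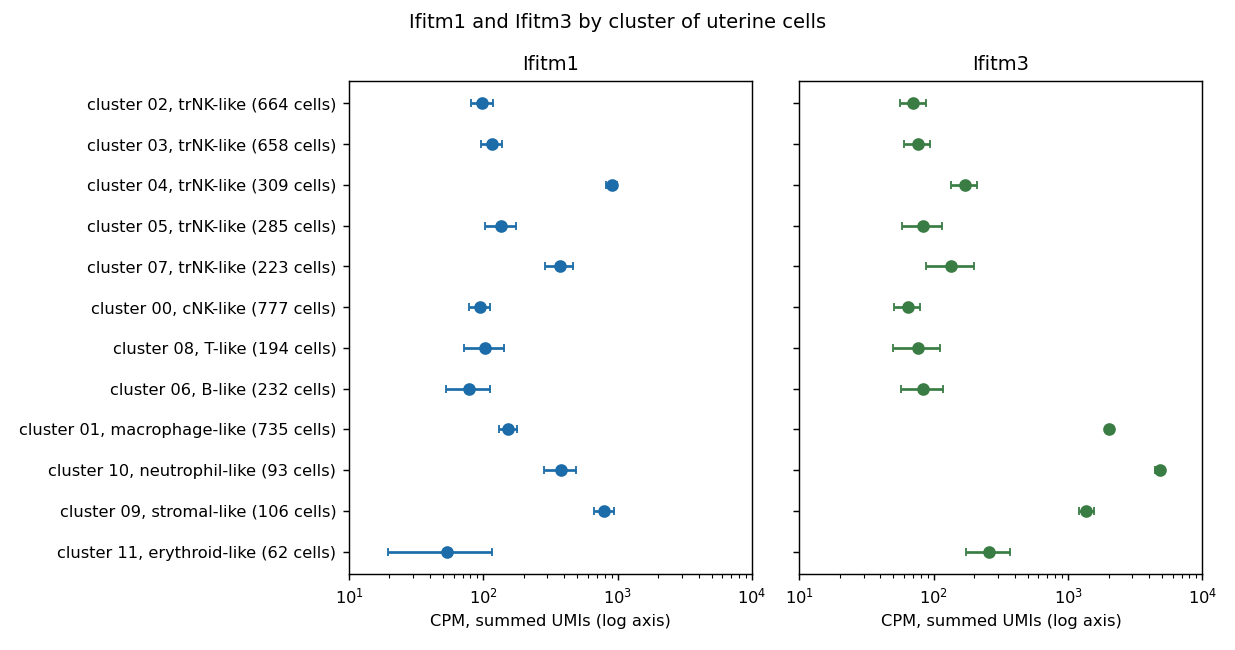
Ifitm1 and Ifitm3 level (CPM of summed UMIs, log axis) with exact 95% Poisson intervals in the 12 clusters of single uterine cells. Ifitm1 is highest in trNK-like cluster 04 (900 CPM) and stromal-like cells (794 CPM), and Ifitm3 in neutrophil-like (4792 CPM), macrophage-like and stromal-like cells. The neutrophil-like cluster also holds monocyte markers, and all cells shown have under 2500 UMIs.

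Other interferon targets also differed between clusters. In cluster 04, antiviral targets summed to 2108 CPM and GTPase targets to 472 CPM, against 3820 to 4510 CPM and 1012 to 1138 CPM in trNK-like clusters 02, 03 and 05. The trNK-like cluster 07 (2321 and 509 CPM) and the conventional NK-like cells (2108 and 827 CPM) were low as well. The cluster with the highest Scin level was followed through the other settings, chosen after its values were seen: its Ifitm1 level was 793 to 992 CPM with other clustering settings and 1846 and 2367 CPM with looser limits on cells, which admit cells of more UMIs and left this cluster without a name. The median over all 15175 cells listed was 3364 UMIs, so the limit of 2500 UMIs leaves out most of the deeper cells. With the limits read as genes per cell, stromal-like cells held 567 CPM of Ifitm1, against 2367 CPM in the cluster with the highest Scin level.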

How the data were processed

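The authors deposited raw read counts per gene for each bulk library (HISAT2 2.1.0 and featureCounts on mm10 per the labels; the methods name RSEM) and UMI counts per cell for the single cells. From the counts, RPKM values were computed, and genes were kept that exceeded 10 RPKM in both replicates of at least 1 group. The analysis used edgeR 4.0.16 (quasi-likelihood, TMM, 1 fit per experiment over all its groups, Benjamini-Hochberg over the genes kept). A call needs an adjusted p under 0.05 and a fold change over 2. DESeq2 1.42.0, limma-voom (limma 3.58.1), other size factors, no filter, the groups compared alone, the replicate number as a block and leaving out each library were alternatives. On simulated data, 89% of 200 genes changed 4-fold were recovered for trNK-T against trNK-V, 95.5% for gd8.5 against virgin, 65.5% for IL-21 in the inhibitor culture and 55% for IL-21 at 72 h. Of the calls on simulated data, 4.35% to 6.81% were false. The changed genes were drawn at random, so these shares do not hold for the 3 members. At gd8.5 against virgin, the members had SE of 1.24 to 1.50, and changes of 2.09 to 2.54 were not called.

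Single cells were clustered with scanpy 1.11.5 (2000 variable genes without the Ifitm genes, 20 components, 20 neighbours, Leiden 0.8). A cluster was named from markers at least 3-fold over the other cells and found in at least 10 cells, or, for trNK markers, 2-fold over B-like cells. These thresholds were set after the clusters were seen. Named beside the members were interferon lists, neighbours within 100 kb and the 5 genes most correlated with each member. The members and lists were chosen with earlier results of these data known. Depth was 11862089 to 66468883 counts per library, and with 2 libraries a group only large differences can pass.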

Additional observations from a re-analysis of the deposited data

How the results depend on the processing

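Of 303 values of the 3 members under other settings of the bulk fits, 264 kept their direction and their side of the threshold, 2 lost a call, 36 gained one and 1 turned its direction. Of 216 values with 1 library left out, 174 did so, 12 lost a call, 15 gained one and 15 turned their direction. The size factors of DESeq2 moved no call, and the trNK-T against trNK-V calls held in all settings other than leaving out a library. The causes were not tested. Without the filter on low values, which tests more genes, calls were gained by Ifitm2 (1.61) and Ifitm3 (2.12) at gd6.5 against virgin, by Ifitm1 (2.07), Ifitm2 (2.50) and Ifitm3 (2.53) at gd8.5 against virgin, and by Ifitm1 (1.57) at gd8.5 against gd6.5. The same setting gained Ifitm1 (3.57) and Ifitm2 (2.79) in trNK-D against trNK-V, and Ifitm1 (2.68) and Ifitm2 (1.52) in trNK-T against trNK-D. In the inhibitor culture it gained Ifitm1 (6.55), Ifitm2 (1.79) and Ifitm3 (4.65) for IL-21 against control, Ifitm1 (-3.77) and Ifitm2 (-2.48) for the inhibitor against IL-21, and Ifitm1 (2.78) and Ifitm3 (3.20) for the inhibitor against control. In the time course it gained Ifitm1 for IL-21 at 6 h (1.901), Ifitm3 for IL-21 at 72 h (4.48), and Ifitm1 at 24 h against 6 h (2.56) and at 72 h against 24 h (-1.37).

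DESeq2 called Ifitm2 in trNK-D against trNK-V (2.66), Ifitm3 for IL-21 (4.67) and for IL-21 with the inhibitor (3.16) against control, Ifitm2 for IL-21 at 24 h (1.30), Ifitm3 for IL-21 at 72 h (4.50) and Ifitm1 at 24 h against 6 h (2.62). With limma-voom, Ifitm2 for IL-21 at 24 h (1.28) and Ifitm3 at 72 h (6.71) were called, and the Ifitm2 difference at 0 h turned to -0.058. Fitted on the groups compared alone, Ifitm1 was called at gd8.5 against gd6.5 (1.60), Ifitm1 (1.899) and Ifitm3 (2.15) for IL-21 at 6 h, Ifitm2 (1.27) and Ifitm3 (1.196) at 24 h, and Ifitm1 at 24 h against 6 h (2.63), while the calls at 72 h against 24 h were lost for Ifitm2 (-1.65) and Ifitm3 (-4.76). With the replicate number as a block, Ifitm3 for IL-21 at 72 h was called (5.13), and no other call of the members changed. Same-numbered libraries did not deviate together throughout, with correlations from -0.43 to 0.54, so the numbers were not read as pairs.

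Leaving out 1 library, with a lone library assumed to vary like the other groups, gave log2 fold changes from -0.48 to 5.53 for Ifitm1, 0.63 to 6.89 for Ifitm2 and 1.22 to 4.82 for Ifitm3 at gd6.5 against virgin. At gd8.5 against virgin the ranges were 1.11 to 7.12, 1.54 to 7.80 and 0.81 to 5.25. Ifitm3 at gd8.5 against gd6.5 ranged from -1.29 to 1.2 (-0.07 without gd6.5 replicate 2). Ifitm1 in trNK-D against trNK-V ranged from -0.18 to 4.6. In trNK-T against trNK-V the ranges were 5.42 to 7.25, 3.68 to 4.84 and 0.72 to 1.75. In the inhibitor culture, Ifitm1 for IL-21 ranged from 5.45 to 15.18, the latter against a control at 0 counts, so that it depends on the prior count and is no bound. Ifitm2 ranged from -7.23 to -1.53 for the inhibitor against IL-21 and from -5.53 to 0.30 against control (0.21 without inhibitor replicate 1). At 0 h, IL-21 gave -0.051 to 0.79, -0.88 to 0.76 and -0.91 to 2.02 (Ifitm3 -0.38 without 0 h replicate 2). At 72 h it gave -0.62 to 2.36 for Ifitm1 and 3.53 to 10.21 for Ifitm3, the latter against a control of 1 count. From 0 to 6 h, Ifitm1 ranged from -0.24 to 0.61 (-0.13 without 6 h replicate 2) and Ifitm3 from -0.45 to 1.95. From 24 to 72 h the ranges were -3.39 to -0.42, -1.84 to -1.43 and -10.46 to -3.76. The IL-21 effect at 72 h minus that at 6 h ranged from -2.51 to 0.46 for Ifitm1 and from 1.38 to 8.07 for Ifitm3.

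The number of genes called moved more than the members did. Without the filter, 919 against 280 genes were called at gd6.5 against virgin, 502 against 17 at gd8.5 against virgin, 452 against 0 at gd8.5 against gd6.5, 471 against 15 in trNK-D against trNK-V, 2022 against 992 in trNK-T against trNK-V, 587 against 82 in trNK-T against trNK-D, 146 against 12 for IL-21 in the inhibitor culture, 461 against 123 and 653 against 197 for the inhibitor against IL-21 and control, 1518 against 283 for IL-21 at 72 h and 1829 against 518 at 72 h against 24 h. In the same order up to the inhibitor against control, DESeq2 called 462, 164, 221, 187, 1079, 326, 162, 445 and 583. It also called 127 against 69, 146 against 58 and 475 against 283 for IL-21 at 6, 24 and 72 h. The IL-21 effect at 72 h minus that at 6 h had 873 calls without the filter and 345 with DESeq2, against 146. From 6 to 24 h, 14 and 13 genes were called by these settings against 3, and from 0 to 6 h 6 by each against 0. At 0 h IL-21 had 3 calls without the filter against 0. Fitted on the groups compared alone, the calls were 0 at gd6.5 against virgin, 251 at gd8.5 against gd6.5, 5 and 27 for trNK-D against trNK-V and trNK-T against trNK-D, 8 for IL-21 against control and 57 for the inhibitor against IL-21. In the time course they were 250, 367 and 0 for IL-21 at 6, 24 and 72 h, and 5, 13 and 3 for the successive steps without IL-21. With the replicate block there were 2 and 0 calls at gd6.5 and gd8.5 against virgin, 25 and 142 in the 2 steps of the subsets, and 1, 8 and 55 in the inhibitor culture. With limma-voom, 32 genes were called in trNK-D against trNK-V. Leaving out 1 library gave 0 to 771 calls at gd6.5 against virgin, 0 to 469 at gd8.5 against virgin, 0 to 4 in trNK-D against trNK-V, 416 to 855 in trNK-T against trNK-V, 1 to 38 in trNK-T against trNK-D, 2 to 17 for IL-21 against control, 7 to 40 and 37 to 99 for the inhibitor against IL-21 and control, 0 to 19 and 1 to 5 for IL-21 at 6 and 24 h, 246 to 907 for IL-21 at 72 h, 0 from 6 to 24 h, 227 to 1144 at 72 h against 24 h and 65 to 745 for the IL-21 effect at 72 h minus that at 6 h.

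Limits on cells moved the single-cell levels. With the limits read as genes per cell or without an upper limit, trNK-like cells held 569.7 and 925 CPM of Ifitm1 and 147.9 and 200.5 CPM of Ifitm3, against 239.7 and 91.8 CPM. The class does not hold the same cells in each setting, and some clusters high in Ifitm1 had no name with those limits, among them cluster 06 (2367 CPM) with the limits read as genes and clusters 01 and 08 (1846 and 1304 CPM) without an upper limit. The cluster with the highest Scin level, an alternative chosen after seeing the data, held 2367 and 1846 CPM of Ifitm1 with those limits, 793 CPM at a Leiden resolution of 0.4 and 992 CPM with 3000 variable genes, and 218 CPM of Ifitm3 without an upper limit.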
